A study of Mus musculus with 18 samples.

Results

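The genes described are 37 named mouse genes of the ATF4 branch of the stress response: 6 stress transcription factors, 4 stress effectors, 8 enzymes of amino acid and folate metabolism, 7 amino acid transporters and 12 cytosolic aminoacyl-tRNA synthetases. They were chosen by symbol. Of these, 36 were listed by symbol among 22783 gene symbols of experiment 1, and 37 among 16639 symbols of experiment 2. Aars, the remaining gene in experiment 1, was listed there only in a joint entry with the overlapping gene Exosc6, written Aars,Exosc6 below and so its value cannot be assigned to either gene alone.

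All 18 libraries were made from polyadenylated RNA of splenic CD4+ T cells of C57BL/6 mice. The cells were sorted as naive cells by flow cytometry, stimulated in culture through CD3 and CD28 with antibodies, and taken for RNA on day 4. Experiment 1 compared cells of Egln1fl/fl Egln2fl/fl Egln3fl/fl Cd4Cre mice (tKO) with cells of Cd4Cre mice (WT), each at 0, 0.2 or 2 ng/ml TGF-b, with 2 libraries in each of the 6 groups. All 12 of these libraries thus carry Cd4Cre, a recombinase driven by the Cd4 promoter, which acts in developing T cells before the culture starts, and the tKO cells carry loxP sites in the genes of PHD2 (Egln1), PHD1 (Egln2) and PHD3 (Egln3). Experiment 2 compared Wildtype cells with 1 mM dimethyloxaloylglycine (DMOG) against vehicle, all at 2 ng/ml TGF-b, with 3 libraries in each group. DMOG inhibits enzymes that use 2-oxoglutarate, the PHD proteins among them and others besides. The animals' age is not given in the sources used here, nor whether the libraries of a group came from separate animals, so p-values measure only the spread between these libraries. In tKO, replicate 1 held Y chromosome transcripts and replicate 2 did not (values below), so the 2 libraries of a tKO group did not come from the same animal. In the other groups the spread may be technical.

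ATF4 is a transcription factor whose own messenger RNA is translated better when the initiation factor eIF2 is phosphorylated. The kinases that do this sense amino acid shortage (GCN2), unfolded protein in the endoplasmic reticulum (PERK), double-stranded RNA (PKR) or lack of haem (HRI). ATF4 then acts, often with C/EBP partners, on genes for amino acid import, serine, asparagine and proline synthesis and the charging of tRNA, and on the factors that later end the response. The PHD proteins use oxygen to mark HIF transcription factors for degradation. Activated T cells depend on imported and newly made amino acids to grow.

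A known DNA element links many of these genes. ATF4 with a C/EBP partner binds a C/EBP-ATF composite site, searched here as TGATGNAA on both strands. HIF factors bind a core searched as ACGTG or GCGTG on both strands, and matches to the 2 sets of letters can share bases at their ends. RefSeq promoters (GRCm38.p6, 250 bases before to 50 after the start) were matched for 31 members. Of these 13 held TGATGNAA, or 41.9%, beside 3.97% of all 32851 promoters and 4.51% of 27025 genes with a promoter. ACGTG or GCGTG was held by 27, or 87.1%, beside 43.8% of promoters and 46.7% of genes. A match of letters is a description and not a measured site, and a gene with several promoters has more chances of a match. No promoter was matched for Slc1a5, Slc7a5, Cars, Lars, Nars and Wars.

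The windows with a TGATGNAA match are shown, 1 for each of the 11 members tested with DMOG, since they let the element be compared across stress factors, an asparagine enzyme, a transporter and synthetases. Each is read on the strand that spells TGATGNAA, 5′ to 3′, with those 8 bases in capitals and 10 bases on each side.
Atf3 (chr1:191183426-191183453, plus strand): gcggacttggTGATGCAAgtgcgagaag
Nupr1 (chr7:126625563-126625590, plus strand): aagccctgtcTGATGCAAtctggccctt
Chac1 (chr2:119351039-119351066, minus strand): ctggcaggagTGATGCAAcggcagggaa
Trib3 (chr2:152344029-152344056, plus strand): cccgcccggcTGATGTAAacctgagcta
Asns (chr6:7693215-7693242, minus strand): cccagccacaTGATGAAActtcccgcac
Slc1a4 (chr11:20332700-20332727, plus strand): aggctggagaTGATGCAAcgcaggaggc
Aars (chr8:111033841-111033868, minus strand): cagagcgctcTGATGAAAagtgacccgc
Gars (chr6:55037961-55037988, minus strand): gcccggtgcaTGATGAAAtagcgcagcc
Iars (chr13:49682127-49682154, minus strand): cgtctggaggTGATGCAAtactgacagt
Tars (chr15:11399656-11399683, plus strand): gctaaccagcTGATGCAAcgggactcct
Yars (chr4:129189896-129189923, plus strand): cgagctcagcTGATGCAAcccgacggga

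The 250 bases before the start are shown for Atf3, Sesn2 and Ddit4, whose tKO and WT libraries did not overlap at any dose, and for Asns, which encodes asparagine synthetase. They are GRCm38.p6, minus strand, 5′ to 3′, and capitals mark TGATGNAA and ACGTG or GCGTG read on either strand.
Atf3 (chr1:191183334-191183583): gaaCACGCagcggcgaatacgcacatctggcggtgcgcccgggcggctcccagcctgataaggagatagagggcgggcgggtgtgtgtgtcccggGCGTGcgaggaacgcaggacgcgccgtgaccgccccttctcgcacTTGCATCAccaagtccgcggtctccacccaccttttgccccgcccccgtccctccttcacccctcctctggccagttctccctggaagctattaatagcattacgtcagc
Ddit4 (chr10:59951771-59952020): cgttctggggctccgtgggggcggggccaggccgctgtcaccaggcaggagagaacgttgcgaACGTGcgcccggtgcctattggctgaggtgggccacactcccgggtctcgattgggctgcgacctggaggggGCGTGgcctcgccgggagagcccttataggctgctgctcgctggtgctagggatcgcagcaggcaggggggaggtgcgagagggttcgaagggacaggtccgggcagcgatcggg
Asns (chr6:7693210-7693459): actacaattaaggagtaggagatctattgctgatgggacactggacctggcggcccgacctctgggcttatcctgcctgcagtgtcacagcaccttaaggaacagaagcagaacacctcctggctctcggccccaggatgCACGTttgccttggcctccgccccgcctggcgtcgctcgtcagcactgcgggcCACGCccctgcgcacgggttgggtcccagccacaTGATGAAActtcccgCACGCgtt
Sesn2 (chr4:132510457-132510706): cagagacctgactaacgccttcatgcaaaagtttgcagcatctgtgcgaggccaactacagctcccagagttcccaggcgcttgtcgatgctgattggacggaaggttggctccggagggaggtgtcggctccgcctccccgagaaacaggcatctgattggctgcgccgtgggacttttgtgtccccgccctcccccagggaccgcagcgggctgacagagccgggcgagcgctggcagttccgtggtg
The Atf3 stretch held 1 match to TGATGNAA and 2 to the HIF core, Asns held 1 and 3, Ddit4 held only 2 matches to the HIF core, and neither set of letters is in the Sesn2 window.

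Values are FPKM, the authors' fragment counts scaled to transcript length and to the mapped fragments of a library. Summed FPKM per library lay between 548974 and 856147 (experiment 1) or 386268 and 443734 (experiment 2), and absolute depth is unknown. T cell markers were high in all libraries, with sums of 10 genes from 3192 to 3770 FPKM in WT, 2567 to 3206 in tKO, 2435 to 2835 with vehicle and 1202 to 1535 with DMOG. Of 10 T cell markers 6 were called lower and 2 higher in tKO over the doses, and all 10 were called lower with DMOG. B cell marker sums were 15.8 to 65.2 FPKM in WT, 16.0 to 87.1 in tKO, 7.65 to 12.4 with vehicle and 0.860 to 1.22 with DMOG (Pax5 at 0), and myeloid sums reached 6.43 in experiment 1 (Lyz2, S100a8 and S100a9 at 0 in every library) and 13.8 in experiment 2. Sums of CD8 and NK cell markers reached 27.4 FPKM in tKO, 14.7 in WT, 15.0 with DMOG and 16.8 with vehicle, and erythroid markers at most 4.78. Over the doses 2 of 3 tested CD8 and NK cell markers were called higher in tKO, Klrk1 (1.74 ± 0.29) and Cd8b1 (0.77 ± 0.21). Klrk1 was at 0 in WT at 0.2 and 2 ng/ml. It reached the mean of 1 FPKM needed for testing only through tKO, so it had to differ to be tested. None of 5 tested B cell markers passed limma's test, adjusted or at an unadjusted p under 0.05. The 3 libraries of tKO replicate 1 held 60.5 to 67.6 FPKM of Y chromosome genes, beside at most 0.008 in the other 9, so the replicates of tKO differ in that respect. Of the targeted genes, Egln3 ran from 77.4 to 140.2 FPKM in tKO and 5.68 to 18.7 in WT, Egln1 from 92.8 to 122 and 20.4 to 44.3, and Egln2 from 19.9 to 39.0 and 35.6 to 48.8. A floxed allele loses only some exons, so a single FPKM per gene does not test the deletion.

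Members were tested on log2(FPKM + 1) with limma in a fit of all tested genes of an experiment, with Benjamini-Hochberg adjustment over all of them. A gene is called where its adjusted p is under 0.05. Of the 37 members, 35 had a mean of at least 1 FPKM in experiment 1, Aars,Exosc6 among them, and 35 in experiment 2. Atf5 (0.160 to 2.53 FPKM) and Slc7a11 (at most 0.178) were left out in experiment 1, and Pycr1 (0.127 to 0.375) and Slc7a11 (at most 0.0597) in experiment 2. Differences are log2 values ± SE. With 2 libraries per group, groups that do not overlap are common. For tKO against WT this held for 52% of all tested genes at 0, 55.1% at 0.2 and 61.2% at 2 ng/ml. For 2 against 0 ng/ml TGF-b it held for 60.5% in WT and 61.3% in tKO. A lack of overlap in these comparisons is therefore a description and adds little to a call. In these bulk samples, fewer cells of a type and less RNA per cell cannot be told apart.

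Loss of the PHD genes was compared first over the 3 TGF-b doses. Of the stress genes, Atf3, Atf4, Cebpb, Nupr1, Sesn2, Ddit4 and Chac1 rose in tKO and Ddit3 and Trib3 did not pass, while most synthetases, transporters and synthesis enzymes did not pass the test. Of 35 members 10 rose and 2 fell, beside 27.2% of all 10354 genes called (13.9% higher and 13.3% lower), and the median difference was 0.13 for members and -0.02 for all genes. By role, 4 of 5 stress transcription factors and 3 of 4 effectors rose, against 1 of 6 transporters and 1 of 12 synthetases, and of 8 synthesis enzymes 1 rose and 2 fell. Of the T cell markers 6 were lower in tKO in the same libraries, as given above. The CD8 marker Cd8b1 was higher, and so was Klrk1, which was tested only through its tKO values. Their part in these counts was not tested.

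Atf3, a stress-induced transcription factor that often acts as a repressor, had the largest difference (locus in mm9: chr1, 192994174 to 193007248). Without TGF-b tKO replicates 1 and 2 held 277 and 248 FPKM, and the WT replicates 7.56 and 2.94. At 0.2 ng/ml the tKO values were 116 and 124, beside 2.52 and 0 in WT. At 2 ng/ml they were 31.2 and 25.9, beside 1.03 and 0. Every tKO library was above every WT library, and in tKO the libraries with 2 ng/ml were the lowest. The difference over the doses was 5.29 ± 0.29 (adjusted p = 2.68e-08), and it is uncertain in size since 2 of 6 WT libraries were listed at 0. At the single doses it was 5.50 ± 0.50, 6.01 ± 0.50 and 4.37 ± 0.50 in rising order of dose.

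Sesn2 encodes sestrin 2, which restrains the growth kinase mTORC1 when leucine is short (mm9 locus: chr4, 132047943 to 132066503). It was at 49.4 and 32.5 FPKM in tKO without TGF-b, 44.5 and 25.0 at 0.2 ng/ml and 33.9 and 31.5 at 2 ng/ml. The WT libraries were at 16.7 and 10.9, 13.7 and 9.26, and 9.58 and 7.69. The lowest tKO library was above the highest WT library. The difference over the doses was 1.60 ± 0.18 (adjusted p = 1.70e-05).

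Ddit4 encodes REDD1, another inhibitor of mTORC1 signalling and a gene that both ATF4 and HIF are known to act on (mm9 locus: chr10, 59412422 to 59414518). It was at 44.2 and 46.4 FPKM in tKO without TGF-b, 54.8 and 47.8 at 0.2 ng/ml and 71.3 and 59.0 at 2 ng/ml. The WT libraries were at 32.0 and 32.6, 25.0 and 28.6, and 28.5 and 22.6, all below the tKO libraries. The difference over the doses was 0.90 ± 0.11 (adjusted p = 2.98e-05). It was 0.48 ± 0.19 without TGF-b, which did not pass (adjusted p = 0.142), 0.91 ± 0.19 at 0.2 ng/ml and 1.32 ± 0.19 at 2 ng/ml. Atf3, Sesn2 and Ddit4 were the members whose 6 tKO and 6 WT libraries did not overlap. The same held for 8.37% of all genes, so this lack of overlap is not shown to be particular to the members.

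Atf4 itself (mm9 locus: chr15, 80085613 to 80087971) differed less. The tKO libraries held 92.3 and 133 FPKM without TGF-b, 84.2 and 147 at 0.2 ng/ml and 49.2 and 64.9 at 2 ng/ml. In WT it was at 68.0 and 84.4, 52.5 and 52.7, and 58.1 and 49.5. The genotypes overlapped at 2 ng/ml and were apart at 0 and 0.2 ng/ml, as they were for 52% and 55.1% of all genes. The difference was 0.56 ± 0.15 over the doses (adjusted p = 0.0127, no longer passing without tKO replicate 2 at 2 ng/ml), 0.54 ± 0.26 without TGF-b (adjusted p = 0.242), 1.06 ± 0.26 at 0.2 ng/ml (adjusted p = 0.0137) and 0.07 ± 0.26 at 2 ng/ml (adjusted p = 0.880). Messenger RNA does not report ATF4 protein, which is set largely by translation.

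The other stress factors followed dose in different ways. Cebpb, a C/EBP partner of ATF4, without TGF-b was at 14.1 and 13.3 FPKM in tKO, beside 21.1 and 16.9 in WT. It was at 36.5 and 30.6 against 15.2 and 19.2 at 0.2 ng/ml and at 55.3 and 69.2 against 23.8 and 14.7 at 2 ng/ml. It rose in tKO over the doses by 0.72 ± 0.14 (adjusted p = 0.00173), and the rise lay at 0.2 (0.93 ± 0.24) and 2 ng/ml (1.67 ± 0.24), with -0.43 ± 0.24 without TGF-b (adjusted p = 0.339). Nupr1, a small stress-induced chromatin protein, without TGF-b was at 17.1 and 34.6 in tKO, beside 7.54 and 16.4 in WT. It was at 149 and 170.4 against 39.7 and 61.1 at 0.2 ng/ml and at 164 and 151 against 152 and 190.2 at 2 ng/ml. Its difference was 0.88 ± 0.20 over the doses (adjusted p = 0.00491), 1.68 ± 0.34 at 0.2 ng/ml and -0.11 ± 0.34 at 2 ng/ml (adjusted p = 0.871), where the genotypes overlapped. Ddit3, which encodes the pro-apoptotic factor CHOP, did not pass over the doses (-0.27 ± 0.13, adjusted p = 0.169) but fell in tKO at 2 ng/ml, with 22.9 and 20.3 FPKM in tKO beside 54.3 and 46.9 in WT (-1.19 ± 0.23, adjusted p = 0.00392, lost without tKO replicate 2 at that dose). Ddit3 and Mars share a locus in the deposited table and the library kit does not mark strand. The split of reads between them is therefore uncertain in every comparison of experiment 1.

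Chac1, which degrades glutathione, was low in all libraries, at 1.91 to 5.72 FPKM in tKO (median 2.78) and 0.0218 to 2.91 in WT (median 1.36). Its difference over the doses was 0.98 ± 0.27 (adjusted p = 0.0141), which no longer passed when WT replicate 2 at 0 ng/ml was left out. Trib3, a pseudokinase that curbs ATF4, ran from 9.52 to 17.8 in tKO and 7.69 to 12.0 in WT and did not pass (0.30 ± 0.16, adjusted p = 0.200).

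**Figure D1:**
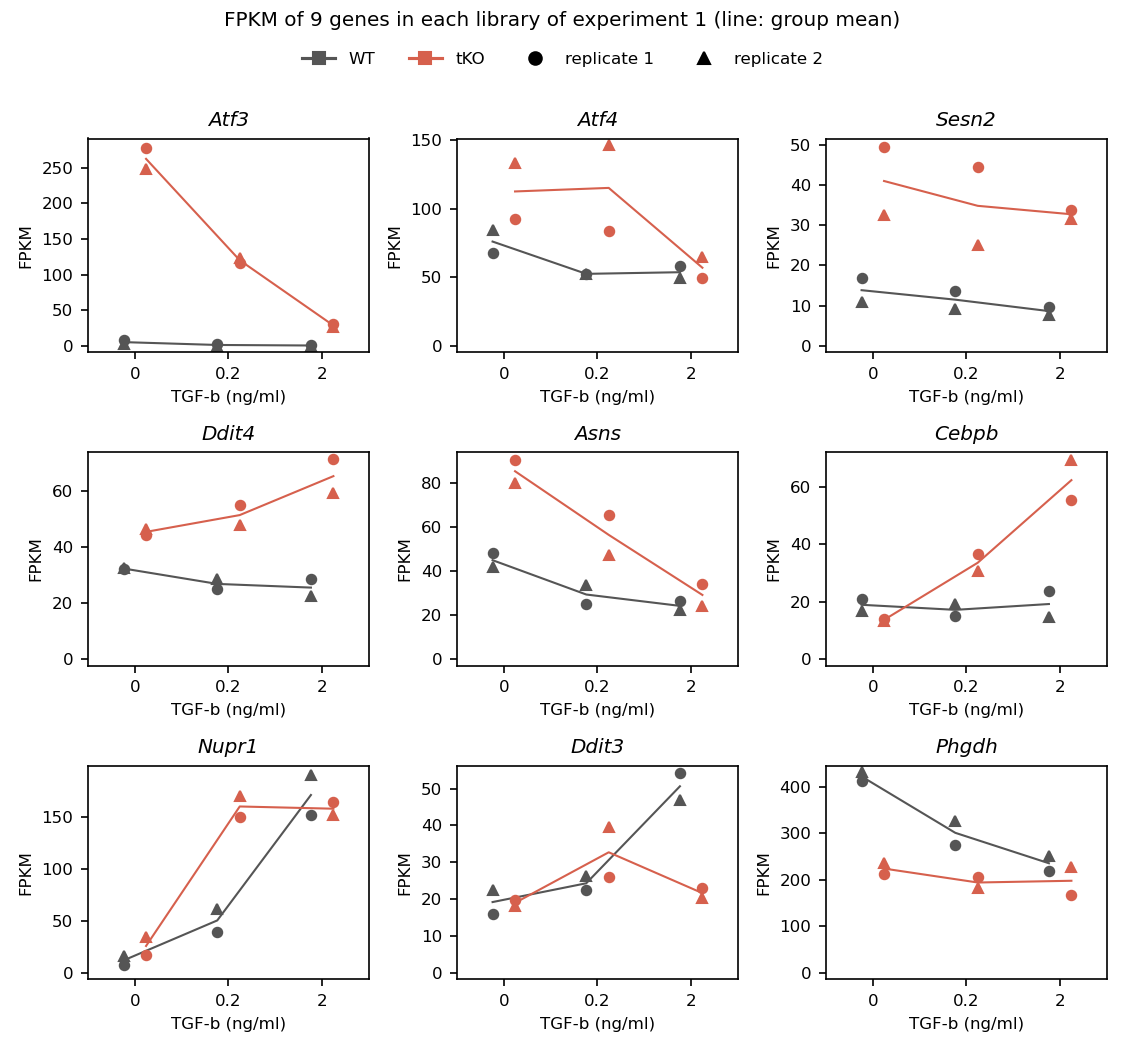
FPKM in each library of experiment 1 for 9 members, by TGF-b dose (0, 0.2 and 2 ng/ml) and genotype, with 1 point per library and lines through the group means (n = 2). The tKO points lie above all WT points for Atf3, Sesn2 and Ddit4, Cebpb parts from WT with dose, and Phgdh is lower in tKO at 0 and 0.2 ng/ml.

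Among the synthesis enzymes the members moved both ways. Asns was at 90.6 and 80.0 FPKM in tKO without TGF-b, 65.5 and 47.4 at 0.2 ng/ml and 34.3 and 24.1 at 2 ng/ml. In WT it was at 48.2 and 41.8, 25.3 and 33.5, and 26.3 and 22.2. The genotypes were apart at 0 and 0.2 ng/ml, as for 52% and 55.1% of all genes, and overlapped at 2 ng/ml. The rise was 0.69 ± 0.13 over the doses (adjusted p = 0.00150), 0.91 ± 0.23 without TGF-b, 0.91 ± 0.23 at 0.2 ng/ml and 0.24 ± 0.23 at 2 ng/ml, which did not pass (adjusted p = 0.519).

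Phgdh, the entry enzyme of serine synthesis, went the other way. Without TGF-b the tKO libraries held 213 and 235 FPKM, beside 412 and 432 in WT. The values were 206 and 182 against 276 and 326 at 0.2 ng/ml, and 168 and 228 against 219 and 252 at 2 ng/ml. It fell over the doses (-0.60 ± 0.10, adjusted p = 0.000630), without TGF-b (-0.91 ± 0.18) and at 0.2 ng/ml (-0.63 ± 0.18), and had -0.26 ± 0.18 at 2 ng/ml (adjusted p = 0.353). The next enzymes of the same pathway did not pass over the doses: Psat1 had 0.14 ± 0.09 and Psph -0.16 ± 0.09, though Psph fell at 2 ng/ml, from 49.7 and 47.9 FPKM in WT to 28.7 and 30.2 in tKO (-0.71 ± 0.16, adjusted p = 0.0102). The Psph call was lost without any 1 of those 4 libraries.

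Aldh18a1, which starts proline synthesis, ran from 8.89 to 48.5 FPKM in tKO (median 27.3) and from 28.5 to 54.2 in WT (median 40.5). It fell over the doses (-0.69 ± 0.22, adjusted p = 0.0368), a call that did not hold without any 1 of 9 of the 12 libraries, all but WT replicate 1 at 2 ng/ml and tKO replicate 1 at 0 and 0.2 ng/ml. Without tKO replicate 2 at 0.2 ng/ml, its lowest library, the difference was -0.44. Mthfd2 and Shmt2, mitochondrial enzymes of folate metabolism, and Pycr1, which ends proline synthesis, did not pass (-0.10 ± 0.11, -0.11 ± 0.10 and 0.24 ± 0.27).

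The transporters and synthetases differed little between genotypes over the doses. Slc3a2, the heavy chain that many amino acid transporters need to reach the membrane, ran from 51.7 to 89.2 FPKM in tKO and 45.3 to 58.3 in WT (0.30 ± 0.10, adjusted p = 0.0381), and its call was lost without any 1 of 9 of the 12 libraries, all but WT replicate 1 at 2 ng/ml and the tKO libraries replicate 1 at 0 and replicate 2 at 0.2 ng/ml. The glutamine transporter gene Slc1a5 had -0.39 ± 0.15 (adjusted p = 0.0661). All 12 synthetase differences were above 0, from 0.01 to 0.43 with a median of 0.11, and only that of Iars passed (0.43 ± 0.13, adjusted p = 0.0231). Iars, for isoleucine, was at 41.5 to 54.9 FPKM in tKO and 20.2 to 50.8 in WT, and the call was lost without 7 of the 12 libraries: WT replicates 1 and 2 at 0.2 ng/ml, WT replicate 2 at 0, WT replicate 1 at 2, tKO replicate 1 at 0, and both tKO libraries at 2 ng/ml. The calls of Asns, Atf3, Cebpb, Ddit4, Nupr1, Phgdh and Sesn2 over the doses held when any library of experiment 1 was left out.

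At single doses fewer members passed. Without TGF-b 4 rose (Atf3, Sesn2, Asns and Slc3a2) and 1 fell (Phgdh), beside 5.34% of genes called higher and 4.30% lower (9.64% in all). The count was 3 without WT replicate 1, WT replicate 2 or tKO replicate 2 of that dose. The Sesn2 call was lost without tKO replicate 1 or WT replicate 2 at 0 ng/ml, the Asns call without any 1 of the 4 libraries, and the Slc3a2 call without either WT library or tKO replicate 2 at 0 ng/ml, either WT library at 0.2 or either tKO library at 2 ng/ml. At this dose none of the 12 synthetases passed limma's test, adjusted or at an unadjusted p under 0.05.

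At 0.2 ng/ml 7 members rose (Atf3, Atf4, Cebpb, Nupr1, Sesn2, Ddit4 and Asns) and 1 fell (Phgdh), beside 9.11% called higher and 6.38% lower (15.5% in all). The count was 2 without WT replicate 1 and 4 without WT replicate 2 of that dose, and only the Atf3 call held when any library was left out. Besides those of WT replicates 1 and 2, leaving out tKO replicate 1 ended the calls of Asns and Cebpb, and leaving out tKO replicate 2 those of Atf4, whose difference was then 0.67, and Phgdh.

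At 2 ng/ml 6 members rose (Atf3, Sesn2, Cebpb, Ddit4, Iars and Wars) and 2 fell (Ddit3 and Psph), beside 7.82% called higher and 8.16% lower (16.0% in all). Of the 12 synthetases 11 had a difference above 0, with a median of 0.43 beside -0.02 for all genes. Iars was at 43.2 and 43.8 FPKM in tKO against 20.2 and 29.0 in WT (0.82 ± 0.22, adjusted p = 0.0222), and Wars, for tryptophan, at 64.7 and 57.3 against 35.7 and 37.004 (0.73 ± 0.22, adjusted p = 0.0372). The libraries of the genotypes were apart for both, as they were for 61.2% of all genes at this dose. The count was 5 without WT replicate 1 or tKO replicate 1 and 4 without tKO replicate 2 of that dose. The Iars call was lost without each of those 3 libraries, and the Wars call without any of these, WT replicate 2 at 2 ng/ml or a WT library at 0 or 0.2 ng/ml.

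The effect of TGF-b itself was read in WT cells. At 2 ng/ml against none, Phgdh, Psat1, Shmt2, Mthfd2, Asns and 7 of 12 synthetases fell, while Nupr1 and Ddit3 rose. Of 35 members 2 rose and 14 fell, beside 7.79% of genes called higher and 7.91% lower (15.7% in all), and the median difference was -0.60 for members and -0.02 for all genes. All 12 synthetase differences were below 0. Of 8 synthesis enzymes 5 fell, and of 6 transporters 1.

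The WT synthetase libraries without and with 2 ng/ml TGF-b did not overlap for the 4 with the smallest p, as for 60.5% of all genes. Wars was at 85.1 and 71.8 FPKM without and 35.7 and 37.004 with TGF-b (-1.08 ± 0.22, adjusted p = 0.00489). Aars,Exosc6 was at 74.2 and 79.4 against 42.2 and 39.9 (-0.89 ± 0.18, adjusted p = 0.00538). Mars, for methionine, was at 74.0 and 57.2 against 25.2 and 38.1 (-1.04 ± 0.25, adjusted p = 0.0128), and Gars, for glycine, at 164 and 158 against 97.7 and 101 (-0.69 ± 0.18, adjusted p = 0.0203). Mars shares its deposited locus with Ddit3, which moved the other way here (1.37), so the split of reads between these genes is uncertain. Nars (-0.63), Iars (-0.79) and Cars (-1.04) also fell, and the remaining 5, Lars, Tars, Yars, Eprs and Sars, lay between -0.70 and -0.15 without passing.

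Among the synthesis enzymes, Psat1, the second enzyme of serine synthesis, was at 169 and 154 FPKM without and 76.0 and 78.3 with 2 ng/ml TGF-b (-1.05 ± 0.15, adjusted p = 0.000539). Shmt2, which turns serine into glycine in mitochondria, was at 141 and 137 against 86.0 and 68.8 (-0.84 ± 0.17, adjusted p = 0.00489). Phgdh was at 412 and 432 against 219 and 252 (-0.84 ± 0.18, adjusted p = 0.00646). In all 3 the libraries with TGF-b were below those without, in a comparison where 60.5% of all genes did not overlap. Asns (-0.87 ± 0.23) and Mthfd2 (-0.63 ± 0.19) also fell, and so did Slc7a5, the large neutral amino acid transporter, from 66.4 and 64.6 to 32.7 and 34.5 (-0.94 ± 0.24, adjusted p = 0.0190).

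The stress factors did not move together. Nupr1 went from 7.54 and 16.4 FPKM without TGF-b to 152 and 190.2 at 2 ng/ml (3.81 ± 0.34, adjusted p = 1.71e-05), and Ddit3 from 16.0 and 22.4 to 54.3 and 46.9 (1.37 ± 0.23, adjusted p = 0.00171). Atf3 fell from 7.56 and 2.94 to 1.03 and 0 (-2.03 ± 0.50, adjusted p = 0.0156). Atf4 (-0.49 ± 0.26), Cebpb (-0.01 ± 0.24) and the 4 effectors did not pass. Of the effectors, 1 was at an unadjusted p under 0.05.

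These counts rest on few libraries. The count of 16 was 6 without WT replicate 1 at 0 ng/ml, 9 without replicate 2 of that group, and 9 and 8 without WT replicates 1 and 2 at 2 ng/ml. The calls of Nupr1, Ddit3 and Psat1 held when any library was left out, and each of the other 13 was lost without at least 1 of these 4. Those of Cars and Mthfd2 were also lost without a WT library at 0.2 ng/ml or a tKO library at 2 ng/ml.

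At 0.2 ng/ml TGF-b in WT, Nupr1 was the 1 member called, at 39.7 and 61.1 FPKM (2.04 ± 0.34, adjusted p = 0.00863), beside 1.59% of all genes (0.918% higher and 0.676% lower). It was lost without WT replicate 1 at 0 or WT replicate 2 at 0.2 ng/ml. Without WT replicate 1 at 0.2 ng/ml 2 members were called. The group means followed the dose for many members. In WT the mean fell from 0 to 0.2 to 2 ng/ml for 11 of 12 synthetases, 6 of 8 synthesis enzymes and 22 of 35 members (62.9%), beside 30.5% of all tested genes.

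In tKO cells 4 of 5 stress factors and 4 of 8 synthesis enzymes changed with TGF-b, and 1 of 12 synthetases. At 2 ng/ml against none, 2 members rose and 8 fell, beside 7.59% of genes called higher and 10.4% lower (18.0% in all), with a median of -0.35. Nupr1 (2.64 ± 0.34, adjusted p = 0.000300) and Cebpb (2.09 ± 0.24, adjusted p = 0.000153) rose. Atf3 (-3.16 ± 0.50), Asns (-1.53 ± 0.23), Psat1 (-1.14 ± 0.15), Psph (-1.09 ± 0.16), Aars,Exosc6 (-0.97 ± 0.18), Atf4 (-0.96 ± 0.26), Shmt2 (-0.62 ± 0.17) and Slc3a2 (-0.57 ± 0.17) fell.

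In these cells Psat1 fell from 199.5 and 174 FPKM to 81.6 and 87.0 at 2 ng/ml, and Psph, the last enzyme of serine synthesis, at 58.8 and 69.5 against 28.7 and 30.2. The libraries at 2 ng/ml were below those without for both, in a comparison where 61.3% of all genes did not overlap. Aars,Exosc6 was the 1 of 12 synthetases that passed, at 69.9 and 87.6 against 40.2 and 38.9. The mean fell along the doses for 4 of 12 synthetases and 15 of 35 members (42.9%), beside 19.8% of all tested genes. The Atf4 call was lost without tKO replicate 2 at 0 ng/ml or either tKO library at 2 ng/ml, the Shmt2 call without any 1 of the 4 tKO libraries compared, and the Slc3a2 call without a WT library at 0 or 0.2 ng/ml, either tKO library at 2 or tKO replicate 2 at 0 ng/ml.

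At 0.2 ng/ml in tKO, Nupr1 rose by 2.66 ± 0.34 (adjusted p = 0.00101) and Cebpb by 1.23 ± 0.24 (adjusted p = 0.0195), beside 1.70% of genes called higher and 0.782% lower (2.48% in all). The Cebpb call was lost without either tKO library at 0 ng/ml, which left a count of 1, and without tKO replicate 1 at 0.2 ng/ml 10 members were called. With all 3 libraries of tKO replicate 1 left out, the Nupr1 call was lost as well.

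Whether TGF-b at 2 ng/ml acted differently in the genotypes was tested directly. Cebpb was the 1 member whose response differed, beside 1.55% of genes called in that direction and 1.43% in the other (2.97% in all). Its WT means were 19.0 ± 2.97 and 19.2 ± 6.46 FPKM at 0 and 2 ng/ml (SD, n = 2 each), and its tKO means 13.7 ± 0.548 and 62.3 ± 9.88. The difference of the responses was 2.10 ± 0.35 (adjusted p = 0.00655). Leaving out tKO replicate 2 at 2 ng/ml ended the call (adjusted p = 0.0568). Without tKO replicate 1 or 2 at 0.2 ng/ml 5 members were called, and without tKO replicate 1 at 0 ng/ml 2. The differences for Psph (-0.88 ± 0.23, adjusted p = 0.0585), Ddit3 (-1.19 ± 0.33, adjusted p = 0.0697) and Wars (1.01 ± 0.31, adjusted p = 0.0997) did not pass. So the synthetases that passed in WT and not in tKO were not shown to respond differently.

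**Figure D2:**
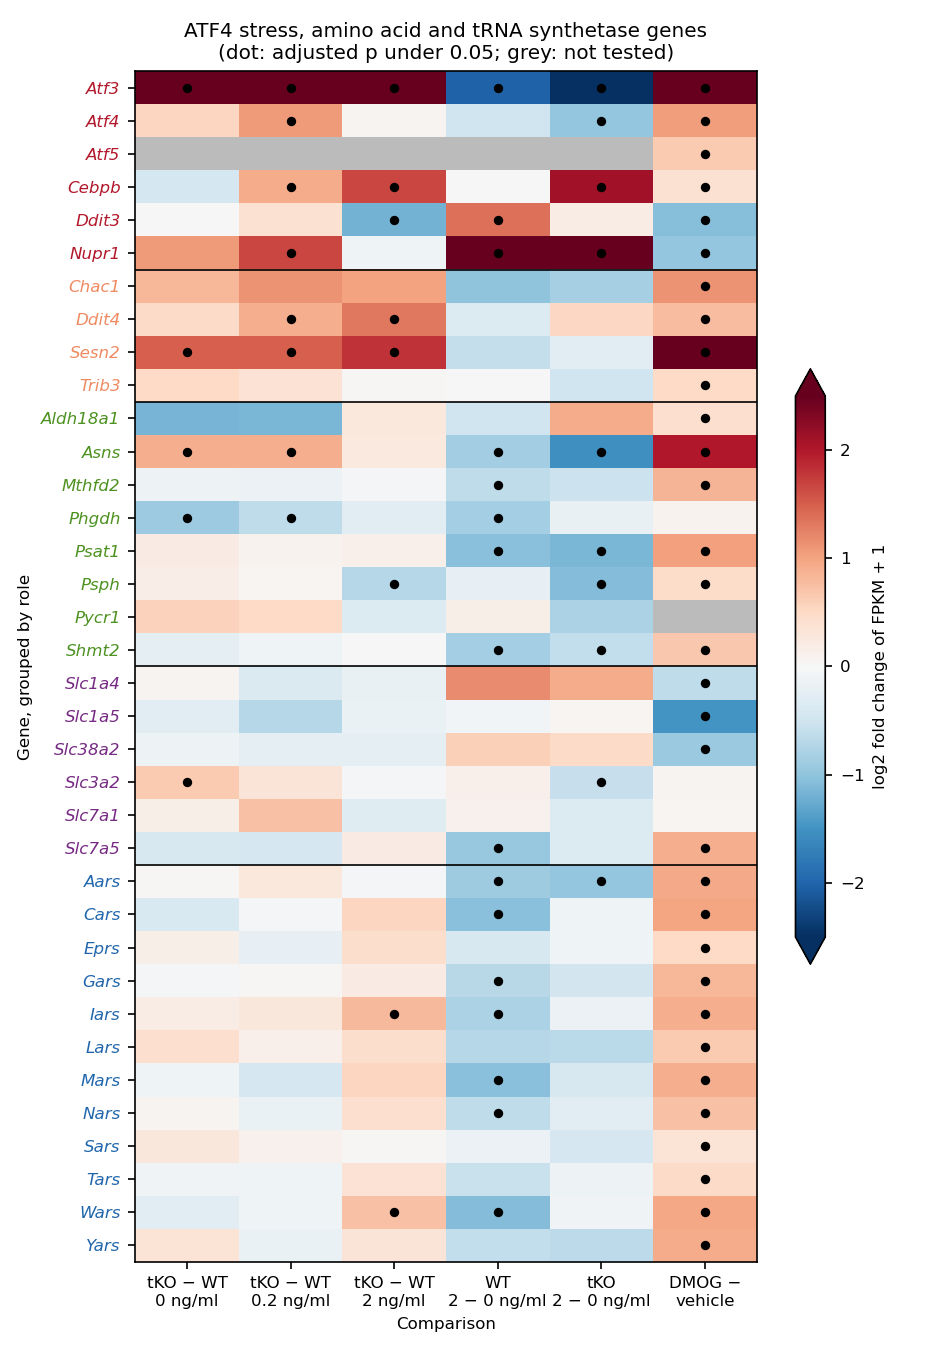
Log2 differences of the tested members (rows, ordered by role) in 6 comparisons (columns: tKO minus WT at 0, 0.2 and 2 ng/ml TGF-b, 2 minus 0 ng/ml in WT and in tKO, and DMOG minus vehicle), with colour capped at 2.5 in each direction, dots where the adjusted p was under 0.05 and grey where a gene was not tested. The 12 synthetase rows are below 0 (blue) for 2 minus 0 ng/ml in WT, with dots in 7, and above 0 (red) with a dot in every row for DMOG; in experiment 1 the Aars row is the joint entry Aars,Exosc6.

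DMOG changed nearly all members. Of 35 tested, 27 rose and 5 fell, beside 27.7% of 9884 genes called higher and 33.2% lower (60.8% in all), with a median of 0.68 for members and -0.03 for all genes. All 12 synthetases, all 4 effectors and 6 of 7 synthesis enzymes rose. Of 6 stress transcription factors 4 rose and 2 fell, and of 6 transporters 1 rose and 3 fell. All 10 T cell markers fell in the same libraries and B cell marker sums were lower, as given above. Single markers of other cells moved too: the myeloid gene Mpeg1 was at 10.1 ± 2.98 FPKM with DMOG and 0.0250 ± 0.00116 with vehicle, Itgam at 0.0152 ± 0.00699 and 6.85 ± 0.243, the CD8 gene Cd8a at 2.88 ± 0.543 and 0.632 ± 0.220, and the NK cell gene Klrd1 at 1.71 ± 0.355 and 7.38 ± 1.56 (SD, n = 3 each). Others of the same list did not follow: the NK cell gene Klrk1 was at 0 with vehicle and 1.43 to 1.74 FPKM with DMOG. The CD8 gene Cd8b1 was at 5.71 ± 1.52 with DMOG and 6.70 ± 0.887 with vehicle and was not called. Mpeg1 and Cd8a passed the filter on low values only through DMOG, and Itgam only through vehicle, so they had to differ to be tested. The part of these markers in the members' values was not tested. Of the 35 members 31 had DMOG and vehicle libraries that did not overlap, beside 65.6% of all genes.

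Atf3 was again the member with the largest difference. It was at 0.218, 0.0864 and 0.210 FPKM with vehicle and 84.9, 72.0 and 77.7 with DMOG (6.08 ± 0.11, adjusted p = 5.18e-17). Atf4 was at 59.5, 46.3 and 47.8 with vehicle and 111, 101 and 109 with DMOG (1.05 ± 0.12, adjusted p = 7.33e-07). Atf5, a related factor under ATF4 control, was at 3.08, 2.79 and 2.44 against 5.15, 4.57 and 4.94 (0.65 ± 0.11, adjusted p = 5.70e-05). All 3 were higher in every DMOG library. Atf3, like Chac1, passed the filter on low values only through its DMOG libraries, so it had to differ to be tested. The DMOG calls of these genes therefore add nothing to the counts that hold them. Those are the DMOG counts of all members, factors, effectors, members without overlap and members with the promoter element, and the counts of members higher in both experiments.

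The factors that fell with DMOG were Ddit3 and Nupr1. Ddit3 was at 13.3, 11.4 and 11.7 FPKM with vehicle and 5.67, 4.49 and 5.59 with DMOG (-1.07 ± 0.12, adjusted p = 4.49e-07). Nupr1 was at 12.0, 10.4 and 12.4 against 5.47, 4.90 and 5.82 (-0.98 ± 0.11, adjusted p = 9.81e-07). The groups did not overlap for either. Cebpb was at 6.66, 4.42 and 4.69 against 7.84, 6.57 and 6.92, overlapping groups (0.39 ± 0.13, adjusted p = 0.0167), and its call was lost without vehicle replicate 2 or 3.

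The effectors rose without overlap. Sesn2 was at 6.07, 4.97 and 5.12 FPKM with vehicle and 40.9, 29.5 and 36.1 with DMOG (2.51 ± 0.13, adjusted p = 2.34e-11). Chac1 was at 0.481, 0.199 and 0.344 against 2.20, 1.84 and 1.67 (1.11 ± 0.11, adjusted p = 1.02e-07). Ddit4 was at 101, 82.3 and 86.6 against 165, 147 and 153 (0.78 ± 0.11, adjusted p = 1.52e-05), and Trib3 at 5.75, 4.44 and 5.09 against 7.42, 8.03 and 7.24 (0.50 ± 0.11, adjusted p = 0.00108). Among tested members Sesn2 had the largest ratio of group means after Atf3, at 6.59.

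Asns led the synthesis enzymes, at 3.63, 3.29 and 3.64 FPKM with vehicle and 15.9, 18.7 and 16.8 with DMOG (2.00 ± 0.11, adjusted p = 5.37e-11). Psat1 was at 47.9, 51.0 and 56.4 against 93.0, 116 and 111 (1.02 ± 0.12, adjusted p = 9.79e-07). Mthfd2 was at 30.9, 23.3 and 26.4 against 48.2, 49.3 and 49.0 (0.85 ± 0.12), and Shmt2 at 42.2, 43.1 and 48.8 against 64.6, 73.8 and 78.7 (0.68 ± 0.11). Each DMOG library was above each vehicle library in these 4. Psph (0.47 ± 0.11) and Aldh18a1 (0.42 ± 0.11) rose by less. Phgdh, the enzyme upstream of Psat1 and Psph, was at 110.3, 105 and 121 with vehicle and 99.97, 136 and 122 with DMOG and did not pass (0.09 ± 0.12, adjusted p = 0.568; 95% interval -0.18 to 0.35).

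All 12 synthetases rose, from 0.33 for Sars to 0.99 for Cars with a median of 0.87. Cars, for cysteine, was at 8.30, 7.34 and 9.18 FPKM with vehicle and 15.5, 18.6 and 18.3 with DMOG (0.99 ± 0.12, adjusted p = 1.30e-06). Wars was at 23.9, 20.3 and 23.2 against 40.8, 44.6 and 50.0 (0.97 ± 0.12, adjusted p = 1.53e-06). Yars, for tyrosine, was at 14.8, 15.0 and 15.5 against 26.3, 31.6 and 31.8 (0.94 ± 0.11, adjusted p = 1.61e-06). In these 3 the DMOG means were 2.11, 2.01 and 1.98 times the vehicle means. Aars, listed on its own in this table, was at 29.1, 27.9 and 31.8 against 52.6, 57.8 and 65.3 (0.96 ± 0.12, adjusted p = 1.68e-06). All 12 had groups that did not overlap, and the smallest rise, Sars (0.33 ± 0.11, adjusted p = 0.0157), was lost without vehicle replicate 1 or DMOG replicate 2 or 3.

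**Figure D3:**
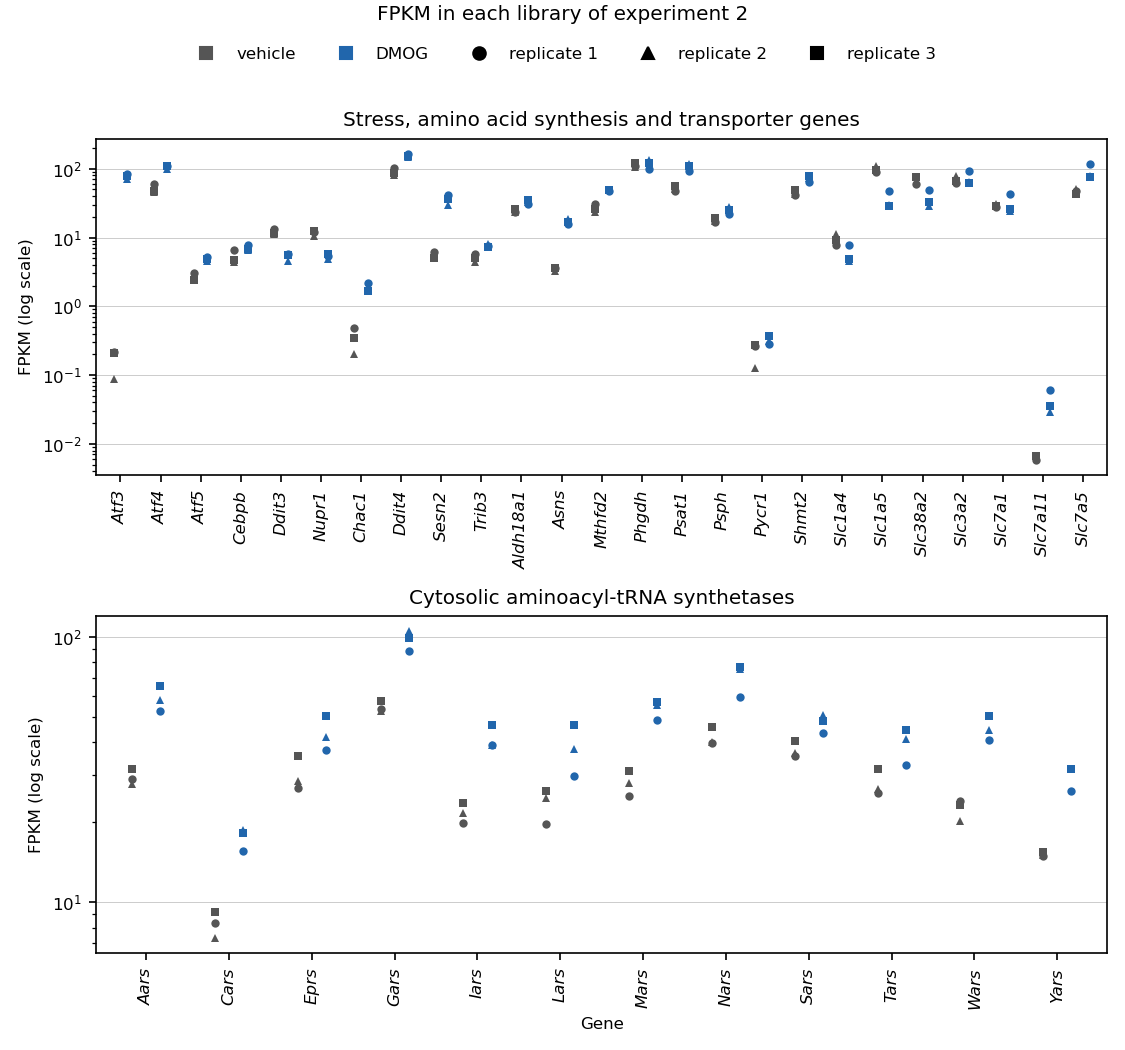
FPKM (log axis) in the 3 vehicle and 3 DMOG libraries of experiment 2, with 1 point per library, for stress, synthesis and transporter genes (top) and the 12 synthetases (bottom). Vehicle replicate 2 of Slc7a11, listed at 0, cannot be drawn; every DMOG point is above every vehicle point for the synthetases, and the reverse holds for Slc1a5, Slc38a2, Slc1a4, Ddit3 and Nupr1.

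The transporters split. Slc7a5 was at 46.8, 51.1 and 42.6 FPKM with vehicle and 119, 77.4 and 76.2 with DMOG (0.91 ± 0.15, adjusted p = 5.38e-05). Slc1a5, which imports glutamine, was at 90.04, 108 and 96.5 against 46.7, 29.5 and 28.5 (-1.50 ± 0.15, adjusted p = 2.65e-07). Slc38a2, a carrier of small neutral amino acids, was at 59.3, 75.9 and 75.2 against 49.6, 29.0 and 33.1 (-0.92 ± 0.16, adjusted p = 0.000106). The groups did not overlap in any of the 3, nor in Slc1a4, for alanine, serine and cysteine, at 7.77, 11.1 and 9.13 against 7.72, 4.63 and 4.94 (-0.63 ± 0.16, adjusted p = 0.00219). DMOG replicate 1 was the highest DMOG library for all 6 tested transporters. Slc3a2 was at 93.6 in that library and 64.1 and 61.3 in the other DMOG libraries, beside 61.3 to 78.6 with vehicle (0.07 ± 0.15, adjusted p = 0.717), and Slc7a1, for arginine and lysine, at 42.9, 24.3 and 26.2, beside 28.2 to 30.3 (0.05 ± 0.16, adjusted p = 0.786). Without DMOG replicate 1 they had -0.12 and -0.19 and still did not pass (adjusted p = 0.369 and 0.165), and the calls of Slc7a5, Slc1a5, Slc38a2 and Slc1a4 held.

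The calls were also counted by the promoter letters. With DMOG, of 11 tested members with the element 9 rose and 2 fell, with a median of 0.90, and of 18 without it 13 rose and 2 fell, with a median of 0.48. The 2 with the element that fell were Nupr1 and Slc1a4, whose windows are printed above beside those of Atf3 and Asns. In tKO over the doses 5 of 12 with the element rose, with a median of 0.27, and of 17 without it 5 rose and 2 fell, with a median of 0.13. These are counts of a few genes, and their difference was not tested. They stand beside 27.7% of all genes called higher and 33.2% lower with DMOG, and 13.9% and 13.3% in tKO over the doses. The shares for all genes with the element were not counted. The 9 include Atf3 and Chac1, which passed the filter on low values only through DMOG.

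Genetic loss and DMOG were set side by side at 2 ng/ml TGF-b, where they share dose and day but no library. The experiments were normalized apart, so the difference between them was not tested. Of 34 members tested in both, 6 were higher in both (Atf3, Sesn2, Cebpb, Ddit4, Iars and Wars) and Ddit3 was lower in both. Psph was lower in tKO and higher with DMOG. DMOG alone was called higher for 19 and lower for 4, and 3 were called in neither. The share of all genes called the same way in both was not counted. Of all genes 16.0% were called in tKO at this dose and 60.8% with DMOG. The joint counts are therefore not shown to be particular to the members.

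Atf3 had 4.37 (95% interval 3.28 to 5.45) in tKO and 6.08 with DMOG, and Sesn2 had 1.81 (1.14 to 2.48) and 2.51. Ddit4 had 1.32 (0.92 to 1.72) in tKO and 0.78 with DMOG. Cebpb had the larger value in tKO, at 1.67 (1.15 to 2.20) beside 0.39. For Asns the values were 0.24 (-0.25 to 0.73) in tKO and 2.00 with DMOG, and for Atf4 0.07 (-0.48 to 0.63) and 1.05. The tKO interval lay below the DMOG interval for 9 of the 34 and above it for 2. The share of all genes with intervals apart was not counted, so this is not shown to be particular to the members. A missing call in tKO does not show a lack of change: its interval ran from -0.13 to 1.22 for Cars and from 0.01 to 1.08 for Mars, whose DMOG values were 0.99 and 0.91.

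**Figure D4:**
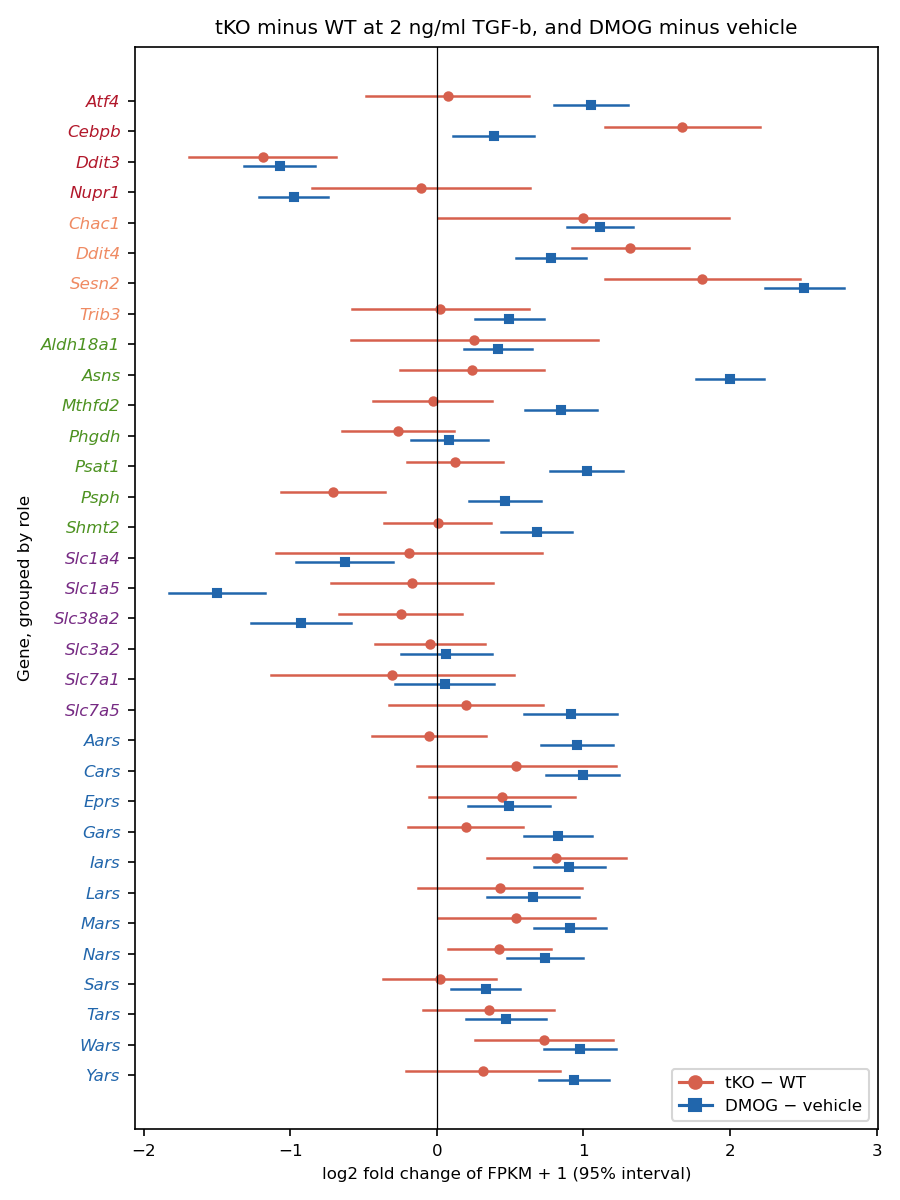
Log2 differences with 95% intervals for 33 members tested in both experiments, tKO minus WT at 2 ng/ml (n = 2 libraries each) and DMOG minus vehicle (n = 3 each), grouped by role; Atf3 (4.37 and 6.08) is left out for scale. The DMOG synthetase values are all above 0 and most tKO intervals for synthetases span 0.

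Over the doses, 8 members were higher both in tKO and with DMOG, the stress genes Atf3, Atf4, Cebpb, Sesn2, Ddit4 and Chac1 with Asns and Iars. Nupr1 was higher in tKO and lower with DMOG, and Aldh18a1 was lower in tKO and higher with DMOG. In tKO alone Slc3a2 was higher and Phgdh lower. The share of all genes called the same way in both was not counted here either, beside 27.2% called in tKO over the doses and 60.8% with DMOG.

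Other genes of the pathway were counted from lists, to be read beside the shares of all genes given above: 13.9% higher and 13.3% lower in tKO over the doses, and 27.7% and 33.2% with DMOG. Of 8 tested further ATF4 targets, 3 rose in tKO over the doses and 6 rose and 1 fell with DMOG. Vldlr, a lipoprotein receptor, Eif4ebp1, a brake on cap-dependent translation, and Cth, which makes cysteine, were the 3 named by the rule in both. Vldlr in both experiments and Cth, Slc6a9 and Jdp2 in experiment 2 reached the filter on low values only through the group where they were high. Slc6a9 was at 2.43 FPKM with DMOG and 0.375 with vehicle, and Jdp2 at 0.673 and 1.71. These genes had to differ to be tested, and the counts that hold them support nothing. Cth was at 18.9 ± 10.5 FPKM in tKO and 3.73 ± 4.30 in WT (n = 6 each, 2.40 ± 0.22), and at 19.3 ± 0.775 with DMOG and 0.213 ± 0.0376 with vehicle (n = 3 each, 4.07 ± 0.10). Eif4ebp1 had 1.69 ± 0.11 in tKO and 2.05 ± 0.11 with DMOG, and Vldlr 3.16 ± 0.19 and 2.20 ± 0.14. Vldlr averaged only 0.156 ± 0.216 FPKM in WT and 0.00450 ± 0.00511 with vehicle, so the size of its difference is uncertain. In WT, Cth fell with 2 ng/ml TGF-b, from 8.11 ± 4.97 to 0.0110 ± 0.0156 FPKM (-3.06 ± 0.38, adjusted p = 0.000178).

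Of the 9 tested genes for eIF2, its kinases and its phosphatase subunits, 2 rose and 1 fell in tKO over the doses, and 6 rose and 2 fell with DMOG. The same 3 had the smallest p. Eif2ak2, which encodes PKR, rose by 1.04 ± 0.16 and 1.18 ± 0.13, and Ppp1r15a, the subunit that directs dephosphorylation of eIF2, by 1.05 ± 0.21 and 1.04 ± 0.11. Eif2ak3, which encodes PERK, went the other way, at 9.18 ± 4.53 FPKM in tKO and 15.5 ± 9.77 in WT (-0.59 ± 0.15, adjusted p = 0.0101) and at 9.31 ± 3.28 with DMOG and 59.6 ± 5.77 with vehicle (-2.60 ± 0.17, adjusted p = 4.99e-10). In WT it rose with 2 ng/ml TGF-b (1.92 ± 0.26, adjusted p = 0.000369). The tKO count of 3 for this list ran from 2 to 6 over all alternatives and moved by over 1.5 times without tKO replicate 1 at 0.2 ng/ml.

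Further synthetases were counted by compartment, and the difference between compartments was not tested. With DMOG, of 8 cytosolic synthetases outside the 12 members, 6 rose, led by Farsa (0.69 ± 0.11), Dars (0.63 ± 0.12) and Hars (0.59 ± 0.11), with a median of 0.57. Of 17 mitochondrial synthetases 1 rose and 7 fell, with a median of -0.13 beside -0.03 for all genes, a share called not above the 60.8% of all genes, and Aars2 (-0.66 ± 0.11), Fars2 (-0.62 ± 0.10) and Vars2 (-0.60 ± 0.10) had the smallest p. In tKO over the doses, 3 of 6 tested other cytosolic synthetases rose and 1 fell, and 4 of 16 mitochondrial ones fell, Aars2 by the smallest p (-1.06 ± 0.19, adjusted p = 0.00100). Both tKO counts moved by over 1.5 times without WT replicate 1 at 0, WT replicate 2 at 0.2 or tKO replicate 1 at 2 ng/ml. The cytosolic count also did so without WT replicate 1 at 2 ng/ml, and the mitochondrial count without tKO replicate 2 at 0 ng/ml. Over all alternatives they ran from 0 to 4 and from 2 to 4.

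Of 12 tested genes of the unfolded protein response outside the ATF4 branch, 4 rose and 5 fell with DMOG, near the shares of all genes, with Edem1 (1.37 ± 0.15) and Sdf2l1 (0.83 ± 0.11) up and Dnajc3 (-0.60 ± 0.13) down. In tKO 3 of 12 rose, Hsp90b1 (0.68 ± 0.09), Edem1 (0.89 ± 0.13) and Xbp1 (0.46 ± 0.10). Of 7 other folate enzymes 4 rose with DMOG and 1 in tKO, and Mthfd1l, a mitochondrial folate enzyme, led both (0.90 ± 0.11 and 1.07 ± 0.12). Of 10 other amino acid transporters 1 rose and 7 fell with DMOG, with Slc43a2, a leucine carrier, at 3.35 ± 0.998 FPKM against 26.5 ± 0.920 (-2.69 ± 0.14), while in tKO 1 of 9 rose and 1 fell. Among the 7 were Slc36a1 (0.656 FPKM with DMOG and 2.10 with vehicle) and Slc38a9 (0.862 and 2.05). These passed the filter on low values only through vehicle, so they had to differ to be tested. Of enzymes of glutamine, glutamate, aspartate and proline, 3 of 7 rose and 1 fell with DMOG, the last being Glul, glutamine synthetase (-0.91 ± 0.12). The tKO counts of the folate enzymes and transporters each moved by over 1.5 times without 1 library. For the folate enzymes these were tKO replicate 1 or WT replicate 2 at 0 and tKO replicate 2 at 2 ng/ml (1 to 2 called over all alternatives). For the transporters they were any WT library except replicate 1 at 2 ng/ml, and tKO replicate 2 at any dose (0 to 2 called).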

How the data were processed

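The 37 members and all gene lists were chosen with earlier results of these data known, so no list is independent support for its direction. Per the labels' protocols, RNeasy columns and a SMARTer Ultra low input kit (which does not mark strand) were used. Cufflinks, Cuffdiff, TopHat and Trimmomatic are named in the submitters' processing notes beside build mm9, without version or role. The authors deposited FPKM per library and experiment, per the file headers. Depth is unknown, so no interval for counting error is given. An FPKM of exactly 0 can be a failed estimate and is given as listed at 0. Exact duplicate entries were dropped (18 and 291), entries sharing a symbol were added up, and joint entries were kept apart. Tests covered the 10354 and 9884 genes whose mean reached 1 FPKM, on log2(FPKM + 1), which understates changes of low genes, with limma 3.58.1 in R 4.3.3: 1 coefficient per group, a mean-variance trend, all libraries of an experiment sharing the spread, two-sided, Benjamini-Hochberg adjustment over all genes of a comparison, threshold 0.05. The script was tested on simulated data. Averages over doses and the TGF-b comparisons treat libraries of a labelled series as independent. Values of every library are given for called members, for at most the 4 with the smallest p in a role, and other lists by counts and at most their 3 called genes with the smallest p. Cell markers and genes that passed the filter only through 1 group are named besides. Alternatives were another pseudocount (0.1), no filter, quantile and median-of-ratios scaling, joint entries added, replicate blocks, series effects, fits of only the groups compared, and each library left out. For the other lists the same alternatives were applied after seeing the data. Promoters are RefSeq's, GRCm38.p6; coordinates of loci are those deposited with experiment 1, mm9. Some items are not reported here.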

Additional observations from a re-analysis of the deposited data

Results flagged for a closer look

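Cebpb was the member whose response to 2 against 0 ng/ml TGF-b differed between the genotypes by a test of the difference itself. The difference, tKO minus WT, was 2.10 on the log2 scale (limma, adjusted p = 0.00655). Both tKO libraries at 2 ng/ml (55.3 and 69.2 FPKM) were above both without TGF-b (14.1 and 13.3), and in WT the 2 groups overlapped (23.8 and 14.7 against 21.1 and 16.9). With tKO replicate 2 at 2 ng/ml left out the adjusted p was 0.0568. No group had the 4 to 10 libraries needed to look for a single library apart from the rest.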

How the results depend on the processing

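The count of members called with DMOG was 32 under every alternative run except leaving out 1 library (31 to 32). No value changed sign while called. In tKO over the doses the count stayed within 1.5 times of 12 under every alternative, and leaving out 1 library gave 8 to 13. It gave 3 to 6 without TGF-b, 2 to 9 at 0.2 ng/ml and 4 to 8 at 2 ng/ml for tKO against WT; 6 to 19 and 0 to 2 for 2 and 0.2 against 0 ng/ml in WT; 7 to 13 and 1 to 10 for the same in tKO; and 0 to 5 for the difference of responses. With no filter on low values, counts were 4 at 0.2 ng/ml for tKO against WT, 9 and 0 for 2 and 0.2 ng/ml in WT, and 2 for the difference of responses. With only the groups compared in the fit, they were 2 at 0.2 ng/ml for tKO against WT, 0 and 1 for 0.2 ng/ml in WT and tKO, and 4 for the difference. The difference gave 4 with quantile normalization, 3 with the labelled series as a random effect and 4 without the 3 libraries of tKO replicate 1, where 0.2 ng/ml in tKO gave 0. The causes were not tested, apart from the fewer samples or other genes each alternative has by construction. Same-numbered libraries of a genotype deviated together (r from 0.06 to 0.42 over 12 pairs), those of different genotypes at -0.11 to 0.25, and those of experiment 2 at -0.19 to 0.44. In experiment 1 the 2 libraries of a group mirror each other around their mean. Each r thus occurs for both numbers, and the 12 pairs are not independent. By the rule used the numbers were not taken to pair the samples. In tKO, though, Y chromosome genes followed the number at every dose. They were at 60.5 to 67.6 FPKM in replicate 1 and at most 0.0069 in replicate 2. The tKO libraries of a number are therefore not shown to be independent of each other. With the number as a replicate block, 2 members were called for 0.2 ng/ml in WT and 2 for the difference, and with the block nested in genotype 2 and 4. Other counts of members stayed within 1.5 times. Of the unfolded protein response genes, 9 were called with DMOG and 5 with no filter. Depth is unknown, and 17.8% to 36.5% of 2411 low genes were listed at 0 per library in experiment 1, beside 1.85% to 2.79% of 2111 in experiment 2, which limits what low members such as Chac1, Pycr1 and Slc7a11 can show.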
